A study of Homo sapiens with 24 samples.

Results

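Genes that break down heme or that move, store and sense iron were followed in the liver cancer line HepG2, which is of human origin and long established. The 10 members were chosen by name as HMOX1, BLVRA, BLVRB, FTL, FTH1, SLC40A1, TFRC, TFR2, IREB2 and FECH, and all were found among the 11927 features of the count table. Cells carried a lentiCRISPRv2 construct with Cas9 and 1 of 3 guides: sgCtrl, which targets the AAVS1 safe-harbour site, or sgKeap1-1 or sgKeap1-2, which target KEAP1. Each population then received siNC, a non-targeting siRNA pool, or sitfeb/sitfe3, siRNA pools against TFEB and TFE3, and RNA was taken 72 h after transfection. This gave 6 groups of 4 libraries, 24 in all. All cells, controls included, therefore carried Cas9 and had been selected with puromycin and transfected with siRNA. The study's methods describe drug-selected populations and do not state that clones were isolated. Libraries were made by QuantSeq, which reads the 3′ ends of polyadenylated transcripts, so the counts measure RNA and not protein, iron or heme.

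KEAP1 brings the transcription factor NRF2 to a ubiquitin ligase, and TFEB and TFE3 are transcription factors of lysosomal genes. Heme oxygenase 1 (HMOX1) opens heme into biliverdin, carbon monoxide and iron, and the biliverdin reductases BLVRA and BLVRB make bilirubin. Iron enters liver cells with transferrin through TFRC, is stored in a shell of FTL and FTH1 chains, and leaves through ferroportin (SLC40A1), while ferrochelatase (FECH) inserts it into protoporphyrin to complete heme. Iron-regulatory proteins such as that encoded by IREB2 bind a hairpin in several of these RNAs, the iron-responsive element. In a 5′ UTR the bound hairpin blocks translation, and in the 3′ UTR of TFRC it protects the RNA from decay.

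A script searched the sense strand of protein-coding transcripts (GENCODE annotation lifted to GRCh37) for such hairpins, as a loop of CAGTGN with its last base not G, 5 upper pairs, a C before the upper stem and at least 3 of 5 lower pairs, with G-T pairs allowed. A match was present in 59 of 19807 genes (0.298%), where any protein-coding transcript counted. Matches were present in 4 of the 10 members, where only the Ensembl canonical transcript of each counted. They are shown because the hairpin is the sequence through which iron-regulatory proteins are known to act. The search finds letters that can pair and measured no binding, and a member without a match was not shown to lack a site. Capitals mark the loop, letters run 5′ to 3′ as DNA, and coordinates are GRCh37.
FTL, 5′ UTR, exon 1, chr19:49468593-49468619, plus strand: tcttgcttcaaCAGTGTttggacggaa
FTH1, 5′ UTR, exon 1, chr11:61735047-61735073, minus strand: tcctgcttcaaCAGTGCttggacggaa
SLC40A1, 5′ UTR, exon 1, chr2:190445388-190445414, minus strand: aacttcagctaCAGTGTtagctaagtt
TFRC, 3′ UTR, exon 19, chr3:195777851-195777877, minus strand: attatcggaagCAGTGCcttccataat
TFRC, 3′ UTR, exon 19, chr3:195777447-195777473, minus strand: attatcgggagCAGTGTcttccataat
TFRC, 3′ UTR, exon 19, chr3:195777382-195777408, minus strand: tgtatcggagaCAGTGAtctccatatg
TFRC, 3′ UTR, exon 19, chr3:195777335-195777361, minus strand: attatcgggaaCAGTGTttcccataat
The matches of FTL and FTH1 are identical at 25 of 27 bases. Those of TFRC all lie in 1 exon, after the coding sequence, and pair at 5 of 5 lower positions.

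The table held 3527000 to 4600951 reads per library. Levels are given as CPM, the reads of a gene for every 1000000 reads in named genes, scaled with TMM factors. Differences are log2 fold changes from a limma-voom fit of all 24 libraries over 11152 genes, and a gene was called when its p-value, adjusted by the Benjamini-Hochberg method over those genes, was under 0.05. The labels do not say whether the 4 libraries of a group came from separate cultures, so p-values measure the spread between these libraries, which may be technical. Each replicate number goes with 1 column prefix in all 6 groups, and the labels do not say what it marks. The main fit holds no replicate block. All 8 hepatocyte markers examined were measured, with ALB (albumin) at 3578 to 12197 CPM and SERPINA1, the lowest, at 20.2 to 121 CPM. Of 6 erythroid markers, 0 had a row. Among 6 macrophage markers only CD68 (0.943 to 4.78 CPM) and CD14 (0.535 to 6.10 CPM) were present, and COL1A1 (2.02 to 25.9 CPM) was the only one of 6 endothelial or fibroblast markers. KEAP1 RNA averaged 84.9 CPM in siNC; sgCtrl, 53.8 CPM in siNC; sgKeap1-1 and 77.4 CPM in siNC; sgKeap1-2, so that it was lower with sgKeap1-1 (log2 fold change -0.66, adjusted p = 0.000102) and not called with sgKeap1-2 (-0.14, adjusted p = 0.448). A cut made by Cas9 need not lower the RNA of its gene. The study reports a marked increase in NRF2 with loss of KEAP1 in HepG2 cells, from immunoblots of sgCtrl and both KEAP1 guides. Averaged over the guides, sitfeb/sitfe3 lowered TFEB (-1.92, adjusted p = 4.91e-06) and TFE3 (-1.67, adjusted p = 6.33e-08). Replicate 1 of siNC; sgKeap1-1 and replicate 1 of sitfeb/sitfe3; sgKeap1-2 stood apart from all others on the second principal component, which held 11.7% of the variance. The second of these also held the fewest reads, the largest share of reads without a gene ID (2.57%, against 1.35% to 2.05% in the others) and 4.53% of reads from MTRNR2L8, a nuclear copy of mitochondrial ribosomal RNA, against 0.380% to 1.25% in the others. The first was within the range of the others in all of these. Values of the members without both libraries are given beside those they touch, and the part of these signs in the results was not tested.

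The question of the first comparison was how these genes differ between cells with a KEAP1 guide and cells with sgCtrl. With sgKeap1-1 under siNC, 5 members were higher and 1 was lower, where 6.01% and 4.91% of all genes tested were called in these directions (10.9% in either). With sgKeap1-2 under siNC, 5 were again higher and 1 lower, against 7.58% and 7.14% of all genes (14.7% in either). Under sitfeb/sitfe3, sgKeap1-1 gave 4 higher and 1 lower, against 5.69% and 4.81% of all genes (10.5% in either), and sgKeap1-2 gave 5 higher and 1 lower, against 10.6% and 9.59% (20.2% in either). SLC40A1, FTL and FECH were higher and TFR2 was lower in all 4 of these comparisons. BLVRA, BLVRB and FTH1 were called in some, and HMOX1, TFRC and IREB2 in none. The median log2 fold change of the 10 members was 0.41 with sgKeap1-1 and 0.52 with sgKeap1-2 under siNC, beside -0.02 and -0.00 over all genes tested. Under sitfeb/sitfe3 it was 0.27 and 0.33, beside 0.00 and 0.01. The comparisons of the guides under 1 siRNA share their sgCtrl libraries and are not independent of each other. In bulk libraries, more cells that express a gene and more of its RNA per cell cannot be told apart.

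**Figure D1:**
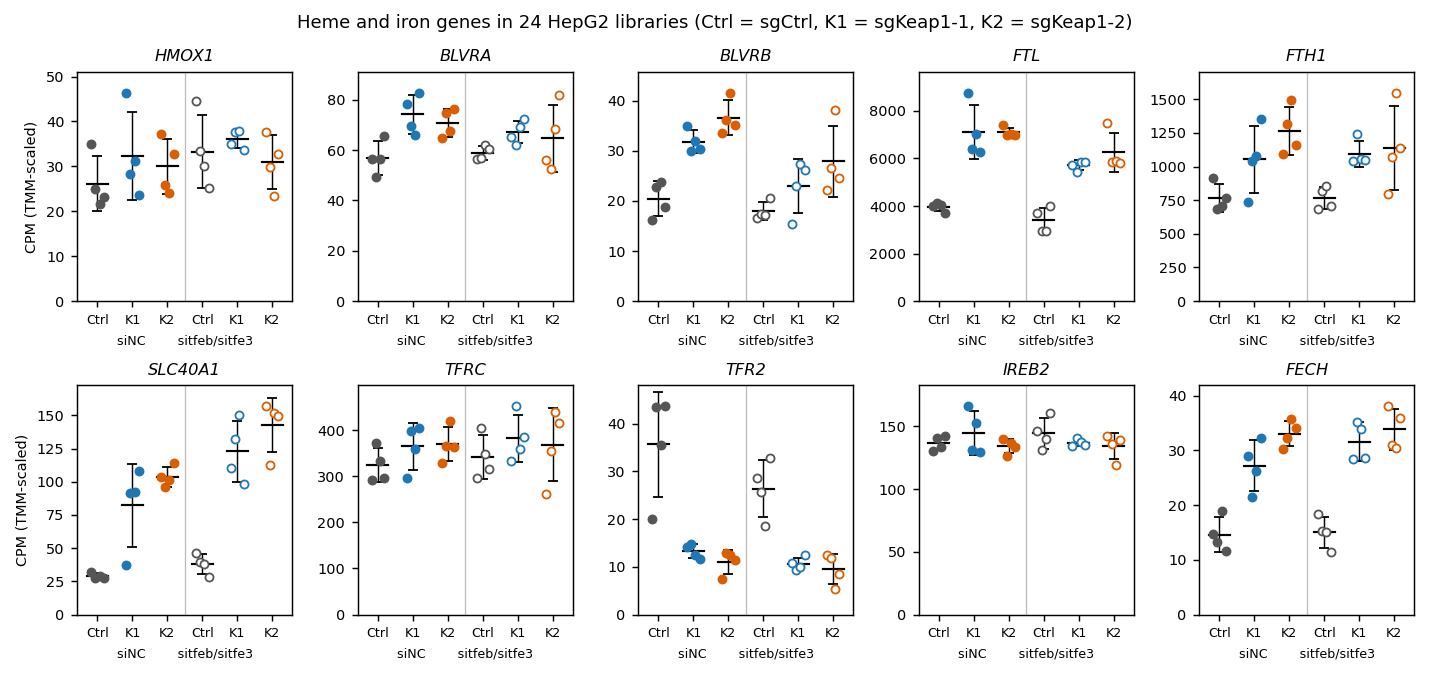
CPM, scaled with TMM factors, of each gene (vertical axis, from 0) in each of 24 libraries by group (horizontal axis). Points are libraries, filled for siNC and open for sitfeb/sitfe3, horizontal bars are means and whiskers are 1 SD (n = 4). FTL, FECH and TFR2 separate the 8 sgCtrl libraries from the 16 KEAP1-guide libraries, while HMOX1, TFRC and IREB2 overlap throughout.

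**Figure D2:**
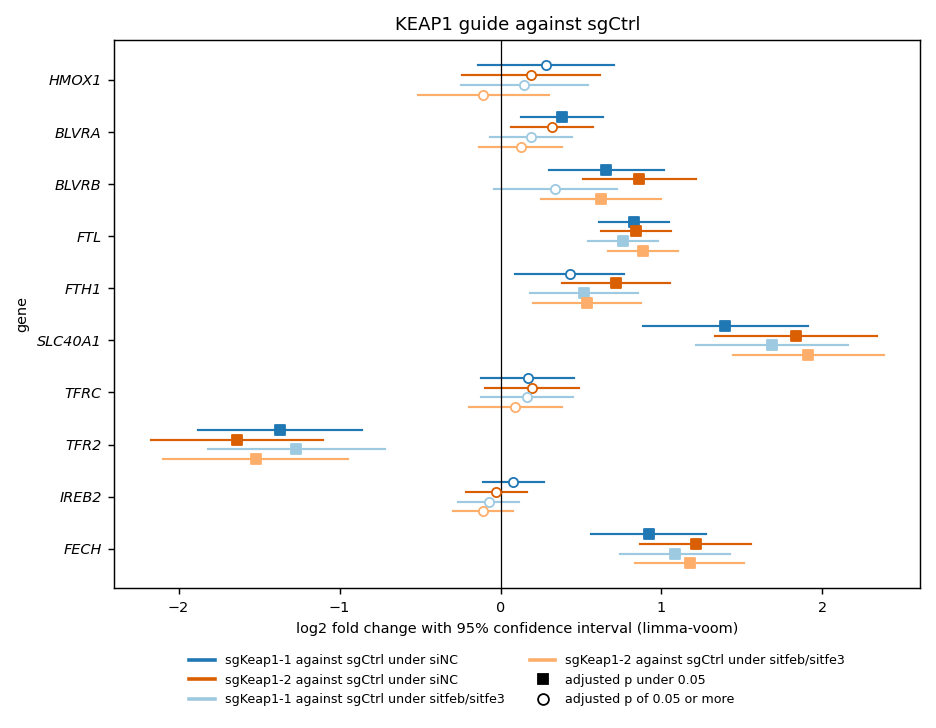
Log2 fold change (horizontal axis) of each KEAP1 guide against sgCtrl for each gene (vertical axis), under siNC (dark) and under sitfeb/sitfe3 (light), with 95% confidence intervals from limma-voom. Filled squares were called at an adjusted p under 0.05. The intervals of SLC40A1, FTL and FECH lie above 0 and those of TFR2 below 0 in all 4 comparisons.

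HMOX1 (Entrez gene 3162, GRCh37 chr22:35776354-35790207, plus strand), the inducible heme oxygenase, was not called with either guide. Its level in siNC; sgCtrl was 35.1, 24.9, 21.5 and 23.1 CPM. In siNC; sgKeap1-1 it was 46.4, 28.3, 31.2 and 23.6 CPM, and in siNC; sgKeap1-2 it was 37.3, 25.8, 24.2 and 32.7 CPM. The 3 groups overlapped, and the top value of each came from the library numbered 1, which was the highest of its group for HMOX1 in 5 of 6 groups. On the log2 scale, HMOX1 differed from sgCtrl by 0.28 with sgKeap1-1 (95% CI -0.14 to 0.71, adjusted p = 0.450) and 0.19 with sgKeap1-2 (-0.24 to 0.62, adjusted p = 0.628). Without siNC; sgKeap1-1 replicate 1 the former was 0.10 (adjusted p = 0.833), and without both libraries that stood apart it was 0.10 (adjusted p = 0.805). These intervals leave room for a rise of up to 1.63-fold with sgKeap1-1 and 1.53-fold with sgKeap1-2, so a missing call does not show that the level was equal. Under sitfeb/sitfe3 the differences were 0.15 (adjusted p = 0.728) and -0.11 (adjusted p = 0.761), the latter -0.20 (adjusted p = 0.480) without both. Ordered by mean, the 6 groups ran from 36.1 CPM in sitfeb/sitfe3; sgKeap1-1 to 26.2 CPM in siNC; sgCtrl, and every neighbour in that order overlapped the next.

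The reductase BLVRB (Entrez gene 645, GRCh37 chr19:40953672-40971671, minus strand), which also reduces flavins, was higher with both guides under siNC. It measured 16.3, 22.7, 23.8 and 18.9 CPM in siNC; sgCtrl. All 4 values rose above these in siNC; sgKeap1-1, at 35.0, 30.01, 31.9 and 30.4 CPM, and likewise in siNC; sgKeap1-2, at 33.6, 36.1, 41.6 and 35.2 CPM. This rise was 0.66 on the log2 scale with sgKeap1-1 (SE 0.17, adjusted p = 0.0128) and 0.86 with sgKeap1-2 (SE 0.17, adjusted p = 0.000786). The sgKeap1-1 call was lost without siNC; sgCtrl replicate 1 (0.56, adjusted p = 0.0568). Under sitfeb/sitfe3 the sgKeap1-2 libraries, at 22.3, 26.6, 38.2 and 24.6 CPM, again lay above the sgCtrl libraries, at 16.6, 17.4, 17.1 and 20.6 CPM, higher by 0.62 on the log2 scale (adjusted p = 0.0141). That call rested on 1 library, since without sitfeb/sitfe3; sgKeap1-2 replicate 3 the value was 0.43 (adjusted p = 0.101). Without both libraries that stood apart, the difference was 0.62 (adjusted p = 0.0193) with sgKeap1-1 under siNC and 0.71 (adjusted p = 0.00471) with sgKeap1-2 under sitfeb/sitfe3. The sgKeap1-1 libraries under sitfeb/sitfe3, at 15.5, 23.0, 27.3 and 26.1 CPM, overlapped sgCtrl, and the difference of 0.34 (95% CI -0.04 to 0.72, adjusted p = 0.300) was not called.

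BLVRA (Entrez gene 644, GRCh37 chr7:43798279-43846941, plus strand), the reductase of the main biliverdin isomer of adult heme breakdown, was only marginally higher. It measured 56.4, 49.4, 56.3 and 65.6 CPM in siNC; sgCtrl and 78.4, 69.5, 65.9 and 82.7 CPM in siNC; sgKeap1-1 so the groups did not overlap, although the highest of the first and the lowest of the second were close. The difference of 0.38 on the log2 scale (SE 0.12, adjusted p = 0.0450) stayed under the threshold in 11 of 24 fits that each left out 1 library, and was 0.36 (adjusted p = 0.0588) without both libraries that stood apart. With sgKeap1-2, at 64.7 to 76.2 CPM, the difference was 0.32 (95% CI 0.06 to 0.57, adjusted p = 0.0874). With a replicate block in the fit, this sgKeap1-2 difference was 0.31 and called (adjusted p = 0.0440). Under sitfeb/sitfe3 the differences were 0.19 (adjusted p = 0.405) and 0.12 (adjusted p = 0.539), the latter 0.18 (adjusted p = 0.325) without both.

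The light chain of ferritin, FTL (Entrez gene 2512, GRCh37 chr19:49468566-49470136, plus strand), rose with both guides under both siRNAs. In siNC; sgCtrl it measured 3990, 4135, 4032 and 3723 CPM. In siNC; sgKeap1-1 it measured 8758, 6404, 7031 and 6286 CPM, and in siNC; sgKeap1-2 it measured 7389, 6994, 7048 and 6979 CPM. No library with a KEAP1 guide, at 5415 to 8758 CPM over both siRNAs, reached down to the 8 sgCtrl libraries, at 2948 to 4135 CPM. Under siNC the sgKeap1-1 libraries exceeded sgCtrl by a log2 difference of 0.83 ± 0.11 (SE, adjusted p = 3.57e-06), and the sgKeap1-2 libraries by 0.84 ± 0.11 (SE, adjusted p = 1.72e-06). Under sitfeb/sitfe3 it was 0.76 (adjusted p = 1.46e-05) and 0.88 (adjusted p = 6.97e-07). Without the libraries that stood apart, the sgKeap1-1 value under siNC was 0.73 and the sgKeap1-2 value under sitfeb/sitfe3 was 0.80, both still called.

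FTH1 (Entrez gene 2495, GRCh37 chr11:61727190-61735106, minus strand), the heavy chain that oxidises iron for storage, was called in 3 of the 4 comparisons. Its level was 917, 685, 708 and 767 CPM in siNC; sgCtrl and 1090, 1318, 1495 and 1163 CPM in siNC; sgKeap1-2, with no overlap and a log2 difference of 0.72 (SE 0.16, adjusted p = 0.00309). In siNC; sgKeap1-1 it was 738, 1042, 1079 and 1351 CPM, where replicate 1 fell among the sgCtrl values, and the difference of 0.43 was not called (adjusted p = 0.101). Left without that library it was 0.59 (adjusted p = 0.0110), and without sitfeb/sitfe3; sgKeap1-2 replicate 1, which is not in this contrast but shares its variance estimate, it was 0.43 (adjusted p = 0.0478). With neither, it was 0.59 (adjusted p = 0.00149). In sitfeb/sitfe3; sgCtrl the values were 687, 816, 858 and 705 CPM, below all of those in sitfeb/sitfe3; sgKeap1-1, at 1042, 1241, 1058 and 1046 CPM. There the difference was 0.52 (adjusted p = 0.0409) with sgKeap1-1 and 0.54 (adjusted p = 0.0197) with sgKeap1-2. The sgKeap1-2 libraries, at 796, 1070, 1548 and 1136 CPM, overlapped sgCtrl. That call was lost without replicate 3 of this group (0.35, adjusted p = 0.137), without its replicate 4 (0.50, adjusted p = 0.0589) and without sitfeb/sitfe3; sgCtrl replicate 1 (0.49, adjusted p = 0.0600). It was larger without replicate 1 of this group, the library behind the overlap (0.69, adjusted p = 0.00175), without both libraries that stood apart (0.69, adjusted p = 0.000144) and without all 6 libraries numbered 1 (0.64, adjusted p = 0.000281). The sgKeap1-1 call held in 11 of 24 fits that left out 1 library.

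FTL and FTH1 together took 0.471% ± 0.0259 (SD, n = 4) of the reads in named genes in siNC; sgCtrl, 0.813% ± 0.0797 in siNC; sgKeap1-1 and 0.836% ± 0.0218 in siNC; sgKeap1-2. Under sitfeb/sitfe3 the shares were 0.420% ± 0.0470, 0.688% ± 0.0118 and 0.732% ± 0.0426 in the same order. Ferritin reads thus separated KEAP1-guide from sgCtrl libraries under both siRNAs. The share of FTH1 among these reads did not separate them, although its mean was highest in sgCtrl under both siRNAs. It was 16.2% ± 2.04, 13.2% ± 4.09 and 15.1% ± 2.00 under siNC, and 18.7% ± 3.92, 16.1% ± 1.68 and 15.5% ± 4.58 under sitfeb/sitfe3. The lowest values, 7.78% and 9.61%, belonged to the libraries that stood apart, in which FTL was the highest and FTH1 the lowest of the group. The second value is from the library with 4.53% MTRNR2L8 reads. All of these shares are of counted reads. No row with a pseudogene symbol of FTL or FTH1 was found in the table, and any loss of reads that align to several places was not examined.

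**Figure D3:**
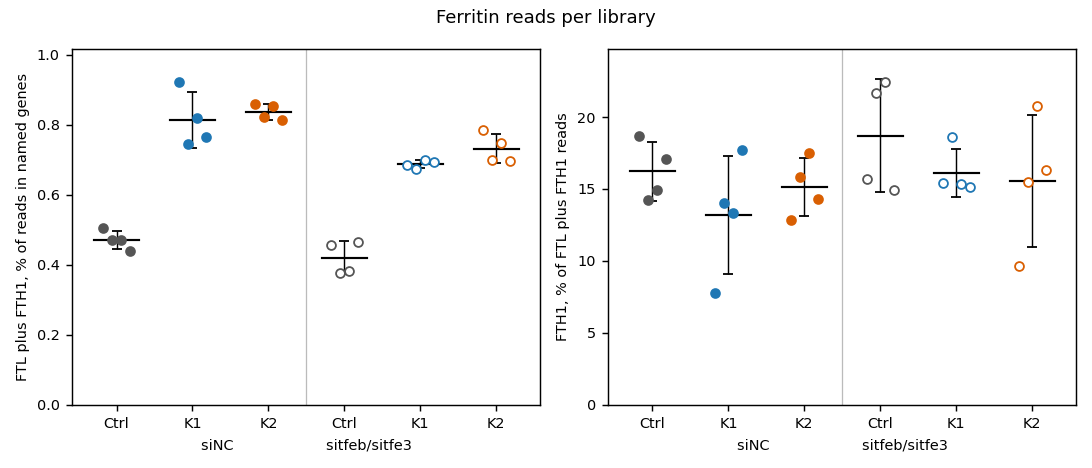
Left, FTL plus FTH1 as a percent of reads in named genes. Right, FTH1 as a percent of FTL plus FTH1 reads. Points are libraries by group (horizontal axis, Ctrl for sgCtrl, K1 for sgKeap1-1, K2 for sgKeap1-2), filled for siNC and open for sitfeb/sitfe3, with means and 1 SD (n = 4). All KEAP1-guide libraries lie above all sgCtrl libraries on the left, while the groups overlap on the right.

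SLC40A1 (Entrez gene 30061, GRCh37 chr2:190425316-190448484, minus strand), the iron exporter, had the largest rise among the members in every comparison with sgCtrl. In siNC; sgCtrl it measured 32.3, 27.2, 28.7 and 27.8 CPM. In siNC; sgKeap1-2 it measured 103, 96.1, 101 and 114 CPM, a 3.57-fold higher level (1.84 on the log2 scale, SE 0.25, adjusted p = 4.65e-06). In siNC; sgKeap1-1 it measured 37.05, 91.4, 92.5 and 108 CPM, all above sgCtrl but with replicate 1 far below its group. The rise there was 1.40 on the log2 scale (SE 0.25, adjusted p = 0.000332), and 1.75 without that library. The sgCtrl libraries under sitfeb/sitfe3, at 46.6, 39.6, 38.2 and 28.2 CPM, lay below all sgKeap1-1 libraries, at 110, 132, 150 and 98.5 CPM, and below all sgKeap1-2 libraries, at 157, 113, 152 and 150 CPM. SLC40A1 was thus higher by 1.69 (adjusted p = 1.07e-05) and 1.91 (adjusted p = 6.84e-07) on the log2 scale, the latter 1.87 without both libraries that stood apart.

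The receptor TFRC (Entrez gene 7037, GRCh37 chr3:195739382-195809024, minus strand), which carries transferrin into most cells, was not called in any comparison. Its level was 293, 372, 334 and 296 CPM in siNC; sgCtrl, 296, 398, 360 and 406 CPM in siNC; sgKeap1-1 and 330, 366, 420 and 364 CPM in siNC; sgKeap1-2. The groups overlapped, and the library numbered 1 was the lowest of its group in 6 of 6 groups. Differences from sgCtrl on the log2 scale were 0.17 (95% CI -0.12 to 0.46, adjusted p = 0.521) with sgKeap1-1 and 0.20 (-0.09 to 0.48, adjusted p = 0.413) with sgKeap1-2, and without all 6 libraries numbered 1 it was 0.22 and 0.21, neither of them called. Without both libraries that stood apart the sgKeap1-1 difference was 0.27 (adjusted p = 0.117). With sitfeb/sitfe3 the TFRC differences were 0.16 (adjusted p = 0.554) and 0.09 (adjusted p = 0.704), the latter 0.24 (adjusted p = 0.126) without both. Group means ran from 383 CPM in sitfeb/sitfe3; sgKeap1-1 to 324 CPM in siNC; sgCtrl, each overlapping the next.

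TFR2 (Entrez gene 7036, GRCh37 chr7:100218039-100240402, minus strand), the second transferrin receptor, is expressed by hepatocytes and takes part in the control of hepcidin. It was the only member that fell. Its level was 20.1, 43.4, 35.6 and 43.6 CPM in siNC; sgCtrl, against 14.1, 14.7, 12.6 and 11.6 CPM in siNC; sgKeap1-1 and 7.34, 12.9, 12.4 and 11.5 CPM in siNC; sgKeap1-2. These were log2 differences of -1.37 with sgKeap1-1 (SE 0.25, adjusted p = 0.000366) and of -1.64 with sgKeap1-2 (SE 0.26, adjusted p = 5.53e-05), or 0.387 and 0.322 of the control level. Under sitfeb/sitfe3, sgCtrl libraries held 28.7, 25.6, 18.5 and 32.7 CPM, sgKeap1-1 libraries 10.8, 9.41, 9.90 and 12.4 CPM and sgKeap1-2 libraries 12.4, 11.8, 5.45 and 8.57 CPM. The differences were -1.27 (adjusted p = 0.00190) and -1.52 (adjusted p = 0.000242). When both libraries that stood apart were left out, TFR2 differed by -1.40 with sgKeap1-1 under siNC and by -1.65 with sgKeap1-2 under sitfeb/sitfe3, both called. All 16 KEAP1-guide libraries, at 5.45 to 14.7 CPM, lay below all 8 sgCtrl libraries, at 18.5 to 43.6 CPM. The counts behind these levels were 24 to 56 reads per KEAP1-guide library.

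IREB2 (Entrez gene 3658, GRCh37 chr15:78729773-78793795, plus strand), whose product is controlled mainly by degradation of the protein, had the narrowest intervals of the members. Its level stayed between 119 and 166 CPM in all 24 libraries, with the groups overlapping. Log2 differences from sgCtrl were 0.08 (95% CI -0.11 to 0.27) with sgKeap1-1 and -0.03 (-0.21 to 0.16) with sgKeap1-2 under siNC, and -0.07 (-0.26 to 0.11) and -0.11 (-0.30 to 0.08) under sitfeb/sitfe3. The first was 0.02 and the last -0.14 without both libraries that stood apart, neither called.

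FECH (Entrez gene 2235, GRCh37 chr18:55211609-55253964, minus strand), the last enzyme of heme synthesis, rose with both guides under both siRNAs. It measured 14.7, 13.2, 18.9 and 11.6 CPM in siNC; sgCtrl, 29.0, 21.4, 26.1 and 32.3 CPM in siNC; sgKeap1-1 and 30.2, 32.3, 35.7 and 34.1 CPM in siNC; sgKeap1-2. The sgKeap1-1 libraries exceeded the controls by 0.92 ± 0.17 (SE) on the log2 scale (adjusted p = 0.000562). The sgKeap1-2 libraries exceeded them by 1.21 ± 0.17 (adjusted p = 8.45e-06). Under sitfeb/sitfe3 the values were 18.4, 15.2, 15.1 and 11.4 CPM with sgCtrl, 28.4, 35.3, 34.0 and 28.6 CPM with sgKeap1-1 and 38.1, 31.0, 30.4 and 35.9 CPM with sgKeap1-2, which is higher by 1.08 (adjusted p = 5.51e-05) and by 1.18 (adjusted p = 7.74e-06). FECH, when both libraries that stood apart were left out, was higher by 0.89 with sgKeap1-1 under siNC and by 1.12 with sgKeap1-2 under sitfeb/sitfe3, both called. None of the 16 KEAP1-guide libraries overlapped the 8 sgCtrl libraries, which reached 18.9 CPM at most.

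Promoters of the members, from 250 bases before to 50 after the start, were read from RefSeq on GRCh38.p14, where 7 of the 10 had an entry. HMOX1, FTH1 and TFR2 had no entry and were not searched, so nothing is shown of their promoters. Those of the 7 were searched on both strands for TGACNNNGC, the core of the antioxidant response element that NRF2 binds, and for CACGTG, the E-box inside the motif of TFEB and TFE3. The first was present in 13.3% of all 35116 promoters and in 1 of the 7 members, FECH. The second was present in 7.26% of promoters and in 0 of the 7. The FECH match, on the strand opposite to the gene and 38 to 30 bases before the start, is shown in capitals as the only match among the 7 members searched. In chr18:57586703-57586770 of GRCh38.p14, minus strand, it reads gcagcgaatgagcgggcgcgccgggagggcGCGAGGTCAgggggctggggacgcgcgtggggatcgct. The match describes letters in this window alone, and sites farther away were not searched.

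The second comparison asked how the members differ with sitfeb/sitfe3. Limma-voom called 0 members within any guide background. Called genes were 0.0179% of those tested in sgCtrl cells, 0.0897% in sgKeap1-1 cells and 0.359% in sgKeap1-2 cells, and at an unadjusted p under 0.05 the members numbered 1, 3 and 2 of 10, where 4.63%, 8.08% and 10.5% of all genes passed. Neither edgeR nor DESeq2 called a member there. Averaged over the guides, 1 member was lower and 1 higher, where 1.39% and 0.942% of all genes were called in these directions (2.33% in either). The log2 difference of FTL was -0.24 (SE 0.06, adjusted p = 0.0263). That of SLC40A1 was 0.50 (SE 0.13, adjusted p = 0.0399). The FTL call held in 21 of 24 fits that left out 1 library and the SLC40A1 call in 11, and without the libraries that stood apart SLC40A1 was 0.37 (adjusted p = 0.0115). FTL missed the threshold without replicate 2 (adjusted p = 0.0525) or 3 (0.0695) of sitfeb/sitfe3; sgCtrl or replicate 2 of sitfeb/sitfe3; sgKeap1-2 (0.0580).

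**Figure D4:**
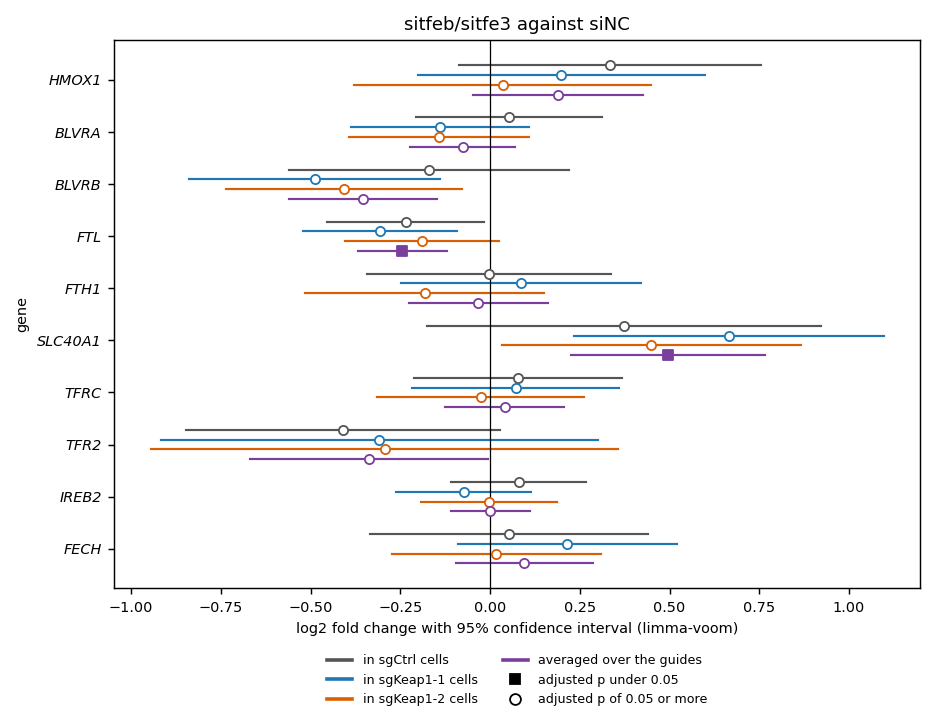
Log2 fold change (horizontal axis) of sitfeb/sitfe3 against siNC for each gene (vertical axis) within each guide background and averaged over the guides, with 95% confidence intervals from limma-voom. Filled squares were called at an adjusted p under 0.05. Only the averaged values of FTL (-0.24) and SLC40A1 (0.50) were called.

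Within backgrounds, FTL measured 3687, 2948, 2962 and 4014 CPM in sitfeb/sitfe3; sgCtrl, where 3 of 4 libraries lay below all siNC libraries. In sitfeb/sitfe3; sgKeap1-1 it measured 5706, 5415, 5842 and 5871 CPM, all 4 below the siNC libraries. In sitfeb/sitfe3; sgKeap1-2 it measured 7492, 5844, 5913 and 5816 CPM, where replicate 1 lay above all siNC libraries and the other 3 below. The direction was the same in each background, with differences of -0.23, -0.31 and -0.19. For SLC40A1 they were 0.37, 0.67 and 0.45, on the log2 scale. Without both libraries that stood apart, the values in sgKeap1-1 and sgKeap1-2 cells were -0.20 and -0.28 for FTL and 0.31 and 0.41 for SLC40A1. BLVRB differed by -0.17, -0.49 and -0.41, and by -0.36 over the guides (95% CI -0.56 to -0.15, adjusted p = 0.0572), which missed the threshold and passed it without siNC; sgCtrl replicate 1 (adjusted p = 0.0349) or sitfeb/sitfe3; sgKeap1-2 replicate 3 (0.0155). With a replicate block in the fit, BLVRB over the guides differed by -0.35 and was called (adjusted p = 0.0317). BLVRB without both libraries that stood apart differed by -0.44 in sgKeap1-1 cells, by -0.32 in sgKeap1-2 cells and by -0.31 over the guides (adjusted p = 0.0884). In sgKeap1-1 cells all 4 BLVRB libraries under sitfeb/sitfe3 lay below all 4 under siNC. TFR2 differed by -0.34 over the guides (-0.67 to -0.01, adjusted p = 0.371). For HMOX1 (0.19), FECH (0.10), TFRC (0.04), IREB2 (0.00), FTH1 (-0.03) and BLVRA (-0.08) the averaged log2 fold change had an interval that included 0, and the widest of these, of HMOX1, ran from -0.05 to 0.43. In sgKeap1-1 cells HMOX1 differed by 0.20 (adjusted p = 0.818), and by 0.39 (adjusted p = 0.637) without both libraries that stood apart.

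Whether the difference between KEAP1-guide and sgCtrl cells itself differed with sitfeb/sitfe3 was tested as an interaction. It was called by limma-voom for 0 members and 0 genes with either guide or averaged over both. At an unadjusted p under 0.05 there were 0 members and 304, 454 and 349 genes (2.73%, 4.07% and 3.13% of those tested), and edgeR and DESeq2 also called 0 members and 0 genes. Averaged over the guides the interaction of FTL was -0.01 (95% CI -0.28 to 0.25), that of SLC40A1 0.18 (-0.44 to 0.81), that of FECH 0.06 (-0.38 to 0.50) and that of TFR2 0.11 (-0.51 to 0.73). The BLVRB value was -0.28 (-0.74 to 0.18). As folds, the intervals run from 0.736 to 1.75 for SLC40A1 and from 0.700 to 1.66 for TFR2, so equal effects under both siRNAs were not shown. These values without both libraries that stood apart were -0.02 for SLC40A1, -0.22 for BLVRB and 0.06 for TFR2.

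Between the guides, 0 members were called for sgKeap1-2 against sgKeap1-1 under either siRNA, where limma-voom called 0% and 0.00897% of all genes, and edgeR and DESeq2 also called 0 members. The lowest adjusted p among the members was 0.713. At an unadjusted p under 0.05 there was 1 member under siNC, SLC40A1, at 0.44 (95% CI 0.00 to 0.88, adjusted p = 0.815), and 0 under sitfeb/sitfe3, where 5.36% and 7.68% of all genes passed. Without siNC; sgKeap1-1 replicate 1 that difference was 0.09.

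Genes with the most similar levels to 3 members over the 24 libraries, among 8363 genes, are given as a description, since the libraries share groups and depth. For FTL they were SULT1A2 (Pearson's r = 0.98), GPX2 (0.96), a glutathione peroxidase, and OSGIN1 (0.95). SULT1A2 has near-identical relatives, so its reads may be split among them. For HMOX1 they were PPP2R1B (0.84), CBY1 (0.81) and GTF2A2 (0.81). For TFRC they were HK2 (0.87), a hexokinase, MCL1 (0.86), an inhibitor of apoptosis, and FAM162A (0.85). No gene was shared between the 3 sets.

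The members sit among other genes of heme and iron metabolism, of which 65 of 74 listed were in the table and 62 were tested. Under siNC, sgKeap1-1 gave 3 that were higher and 9 that were lower, where 6.01% and 4.91% of all genes were called in these directions, and sgKeap1-2 gave 4 and 8, where the shares were 7.58% and 7.14%. Under sitfeb/sitfe3 the counts were 2 and 8 with sgKeap1-1, beside 5.69% and 4.81% of all genes, and 6 and 12 with sgKeap1-2, beside 10.6% and 9.59%. Their median log2 fold change under siNC was -0.04 and 0.01, beside -0.02 and -0.00 over all genes. Without both libraries that stood apart, the counts under siNC were 5 higher and 7 lower with sgKeap1-1, where 8.14% and 6.15% of all genes were called. They were 6 and 9 with sgKeap1-2, where the shares were 10.6% and 9.88%. In the fit of all 24 libraries, 2 were higher and 8 were lower with both guides under siNC.

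Of the 10 tested genes of iron uptake and transport, 5 were lower with each guide under siNC, where 4.91% and 7.14% of all genes were called lower. They are listed as a description of single genes, with no test of the list. These were STEAP1 (log2 fold change -1.28 with sgKeap1-1 and -1.23 with sgKeap1-2), STEAP2 (-0.73 and -1.81), which is a ferrireductase, SLC39A14 (-1.06 and -0.82), an importer of iron not bound to transferrin, TF (-0.89 and -0.67), transferrin itself, and SLC11A2 (-0.39 and -0.42), which moves iron out of endosomes. STEAP2 without both libraries that stood apart was not called with sgKeap1-1 (-0.69, adjusted p = 0.0660), and SLC39A14 differed by -0.73 there and stayed called. In that fit 4 of the 10 were lower and 1 was higher with sgKeap1-1 under siNC, beside 6.15% and 8.14% of all genes. With sgKeap1-2 under siNC 5 were lower and 1 was higher, beside 9.88% and 10.6%. Also lower were the heme exporter FLVCR1 (-0.65 and -0.64), the heme and folate carrier SLC46A1 (-0.58 and -0.67) and GLRX5 (-0.44 and -0.57) of iron-sulphur assembly. The genes that rose were ABCG2 (0.61 and 0.88), an exporter that accepts porphyrins, and a feature whose counts are identical for BACH1 and GRIK1-AS2 (1.19 and 1.00), so that the heme-sensing repressor BACH1 and the antisense gene cannot be told apart there.

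Of the 7 tested genes of heme synthesis that act before FECH, 1 was lower and 0 higher with sgKeap1-1 under siNC. There 4.91% of all genes were called lower and 6.01% higher. With sgKeap1-2 under siNC 0 were called, where the shares were 7.14% and 7.58%. The gene called lower with sgKeap1-1 was ALAD, the second enzyme of the pathway, at -0.64 (adjusted p = 0.0160) with sgKeap1-1 and -0.49 (adjusted p = 0.0545) with sgKeap1-2. Without both libraries that stood apart it was at -0.46 (adjusted p = 0.0676) and -0.49 (adjusted p = 0.0228). ALAD was singled out after its value was seen. ALAS1, the rate-limiting enzyme in liver, differed by 0.13 (adjusted p = 0.778) and 0.27 (adjusted p = 0.439). In the hepcidin axis 0 of 13 tested genes were called under siNC with either guide, where 10.9% and 14.7% of all genes were called in either direction. Without both libraries that stood apart, 1 of the 13 was higher with sgKeap1-2 under siNC, where 10.6% of all genes were. With sgKeap1-1 it was still 0. HAMP, which encodes hepcidin, the peptide that closes ferroportin, differed by 0.66 (adjusted p = 0.0609) and 0.25 (adjusted p = 0.561). NCOA4, the receptor that takes ferritin to lysosomes, was lower under sitfeb/sitfe3 with sgKeap1-1 (-0.35, adjusted p = 0.0103) and sgKeap1-2 (-0.49, adjusted p = 0.000298), and differed by -0.26 (adjusted p = 0.0694) and -0.21 (adjusted p = 0.125) under siNC. ACO1, which encodes the other iron-regulatory protein, differed by -0.19 and -0.32 under siNC, uncalled, and NFE2L2, the gene of NRF2, by -0.33 and -0.25, uncalled. With sitfeb/sitfe3 averaged over the guides, HPX (hemopexin), which binds free heme, was higher (0.46, adjusted p = 0.0335) and HP (haptoglobin), which binds free hemoglobin, was lower (-0.52, adjusted p = 0.0354). HP was singled out after its value was seen.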

How the data were processed

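The members, the wider list and the tests were chosen with earlier results of these data known. The authors deposited raw read counts, whole numbers with 1 column per library (24 columns, 13446 rows keyed by Entrez ID). The submitters' processing notes name FastQC 0.72, cutadapt 1.16, STAR 2.7.5b, featureCounts 1.6.3 and limma 3.40.6. The notes name hg38 and the study's methods GRCh37, and the table holds no coordinates; the strand setting was not given in the sources used here. Rows without an ID (1414, 1.35% to 2.57% of reads) were left out, rows sharing an ID were summed, and IDs with identical counts were merged, leaving 11927 features. In R 4.3.3, limma-voom, the test that the study's methods name, was run with edgeR 4.0.16 and limma 3.58.1 and fitted to 6 group means with TMM factors and a filterByExpr filter, and first tested on simulated data. Alternatives included edgeR's quasi-likelihood test and DESeq2 1.42.0. Reads carry no molecular identifier. Named besides the members are fixed genes, those called with both guides under siNC and those with the most similar levels. ALAD and HP were added after their values were seen. Tests were two-sided.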

Additional observations from a re-analysis of the deposited data

Results flagged for a closer look

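In groups of 4, a library was set aside for a closer look when its gap to the nearest of the others exceeded 0.829 of the group's range (Dixon's critical value). Of 60 groups of members, 4 met this, where chance gives about 1 in 20. FTL was at 7389 CPM in siNC; sgKeap1-2 replicate 1, above 6979 to 7048 CPM in the others. It was at 7492 CPM in sitfeb/sitfe3; sgKeap1-2 replicate 1, above 5816 to 5913 CPM, and this library also held 4.53% MTRNR2L8 reads and 2.57% of reads without a gene ID, the highest shares of the 24. FTH1 was at 1241 CPM in sitfeb/sitfe3; sgKeap1-1 replicate 2, above 1042 to 1058 CPM. SLC40A1 was at 113 CPM in sitfeb/sitfe3; sgKeap1-2 replicate 2, below 150 to 157 CPM.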

How the results depend on the processing

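Over 10 other settings and 24 fits that each left out 1 library, none of the 4400 alternative values reversed a called direction, and 158 values that were never called changed sign. The number of members called with sitfeb/sitfe3 averaged over the guides, 2, ranged from 0 to 3 without single libraries. It was 0 without sitfeb/sitfe3; sgCtrl replicate 2 or replicate 3. Calls of FTL, SLC40A1, FECH and TFR2 against sgCtrl held in all 24 such fits. BLVRA with sgKeap1-1 under siNC lost its call with no filter (adjusted p = 0.0544), with only 2 groups in the fit (0.0985), without the libraries that stood apart (0.0588) and without those numbered 1 (0.103). FTH1 with sgKeap1-2 under sitfeb/sitfe3 lost its call with only 2 groups in the fit (0.0533), and TFR2 with sitfeb/sitfe3 over the guides gained one without the libraries numbered 1 (-0.53, adjusted p = 0.0304). BLVRB over the guides was called by DESeq2 (adjusted p = 0.0321). Counts over all genes moved by over 1.5 times with only 2 groups in the fit (1218 to 766 with sgKeap1-1 under siNC), with sitfeb/sitfe3 over the guides (260 to 422 with DESeq2, 432 without the libraries that stood apart and 475 without those numbered 1) and for sitfeb/sitfe3 within the backgrounds (2, 10 and 40), over ranges of 2 to 13, 1 to 48 and 11 to 109. The guides differed in up to 9 and 20 genes with DESeq2. The causes were not tested.

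Groups share replicate numbers, and each number goes with 1 column prefix in all 6 groups, but the labels do not say what a number or prefix marks. Deviations of same-numbered libraries correlated at -0.163 to 0.430 (20 of 60 pairs over 0.1), and 15 of 24 libraries correlated best with their own number. The library numbered 1 was the lowest of its group in 6 of 6 groups for TFRC and in 5 of 6 for BLVRB and FTH1. For HMOX1 it was the highest in 5 of 6. Whether same-numbered libraries share a batch was not tested, and the main fit holds no replicate block. With a replicate block, BLVRB over the guides (-0.35, adjusted p = 0.0317) and BLVRA with sgKeap1-2 under siNC (0.31, adjusted p = 0.0440) were also called, and no other member's call changed. Over all genes, calls went with the block from 1218 to 1454 with sgKeap1-1 under siNC. They went from 260 to 380 with sitfeb/sitfe3 over the guides.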
